A study of Saccharomyces cerevisiae with 60 samples.

Results

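After 30 min at 42 °C, budding yeast lacking the stress activators Msn2 and Msn4 held the transcripts of trehalose, glycogen, catalase and small stress protein genes far below their wild-type levels. None of 18 core Hsf1 targets, most of them chaperone genes, was lower, against 13.7% of all genes tested. The comparison set 3 libraries of heated msn2Δ/msn4Δ cells directly against 3 libraries of heated wild-type cells, chosen by strain, temperature and time in the sample titles, 6 of the 60 libraries of the series. The series measured poly(A) RNA in 4 strain states, each in triplicate before heat (25 °C) and after heating to 37 °C or 42 °C for 10 or 30 min. All strains are W303 with the HSF1 gene tagged for anchor-away, a method in which rapamycin pulls the tagged protein out of the nucleus. The deletion group was msn2Δ/msn4Δ cells with Hsf1 in place. The cells they were set against, called wild type here as in the titles, carry MSN2 and MSN4 and the same Hsf1 tag, so neither group is an untagged strain. Both were grown in the rich medium YPD-A at 25 °C to mid-logarithmic phase, given DMSO without rapamycin for 45 min at 25 °C, and then moved to 42 °C for 30 min. The same contrast was also read in cells given rapamycin, named double loss (Hsf1-depleted msn2Δ/msn4Δ) and Hsf1-depleted (the MSN2 MSN4 strain) below. Hsf1 depletion and rapamycin went together in these libraries, so their effects cannot be told apart. The titles number the replicates 1 to 3 but do not say whether they are separate cultures, so p-values measure only the spread between these libraries, which may be technical. In bulk RNA, fewer responding cells and less RNA per cell cannot be told apart.

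Msn2 and Msn4 are paralogous zinc finger activators that stay in the cytoplasm of growing yeast while protein kinase A is active, and enter the nucleus under heat, oxidants, high osmolarity or starvation. There they bind the stress response element (STRE), whose core is AGGGG, upstream of genes for storage carbohydrates, antioxidant enzymes and small protective proteins. Hsf1, the other heat-responsive activator of yeast, is essential and binds heat shock elements (HSE), repeats of GAA in alternating direction, upstream of chaperone genes. Some genes carry both kinds of element.

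The 6 libraries held 4531433 to 7150195 counts over 7126 features. Levels are CPM, a count divided by library size and scaled to a common total, on library sizes scaled by trimmed mean of M-values (TMM), and 3 counts correspond to 0.526 to 0.65 CPM in the msn2Δ/msn4Δ libraries. Fold changes are log2 of msn2Δ/msn4Δ over wild type, given ± SE, from edgeR's quasi-likelihood test fitted over all 60 libraries. Falls and rises below are differences from wild-type cells in the same condition. They are not changes with heat unless times or temperatures are compared. A gene was called at a Benjamini-Hochberg adjusted p under 0.05 and a log2 fold change of at least 1 in size. Replicate 3 of msn2Δ/msn4Δ and replicate 1 of wild type stood apart from their fellows, with correlations of log2 CPM down to 0.954 and 0.979. The 0.954 was that of msn2Δ/msn4Δ replicates 2 and 3. Replicate 2 of msn2Δ/msn4Δ also had a larger root mean square deviation from its group (0.357) than wild-type replicate 1 (0.328). That of msn2Δ/msn4Δ replicate 3 was 0.409. The run without the 2 libraries that stood apart was not planned. The msn2Δ/msn4Δ and wild-type strains also lie in separate library sets by the names of the count tables, so set and deletion cannot be told apart in the direct comparison. Strand use in the counting is not given in the sources used here. Reads of RGI1, GPD1, GND1, GCY1, GRX6, MET17, CPR6, DCS1, NSR1 and HSF1 therefore cannot be told apart from those of a feature on the other strand that they overlap. GPH1, HXK1, GLK1, TKL2 and YAK1 overlap a feature on their own strand. Paralogs of near-identical sequence (the TDH, ENO, HSC82/HSP82, RPL and RPS pairs, IMD2 and HXT genes) can exchange reads, and their values are uncertain to that extent.

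The deletion was visible in its own transcripts. MSN2 had 0 counts in all 3 msn2Δ/msn4Δ libraries, against 243, 179 and 164 CPM in wild-type cells. MSN4 likewise had 0 counts in the msn2Δ/msn4Δ libraries, against 124, 98.3 and 88 CPM in wild-type cells. Set against 3 counts per library, these were at least 300.3-fold and 159.2-fold lower. Of the genes beside the deletions, CCS1, MIH1 and YKL063C had log2 fold changes of -0.53 ± 0.29, -0.47 ± 0.18 and -0.14 ± 0.35 and were not called. BLI1, next to MSN4, was higher in all 3 msn2Δ/msn4Δ libraries, with 10.4, 8.41 and 18 CPM in msn2Δ/msn4Δ cells, against 2.21, 1.44 and 1.43 CPM in wild-type cells (2.85 ± 0.74, edgeR adjusted p = 0.00176). HSF1 itself had 231, 257 and 168 CPM in msn2Δ/msn4Δ cells, against 429, 389 and 324 CPM in wild-type cells. Its 3 msn2Δ/msn4Δ libraries lay below the wild-type ones, but the difference of -0.80 ± 0.21 did not reach the fold threshold; without msn2Δ/msn4Δ replicate 2 it was -1 and was called.

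Of 6070 genes tested, 829 were called lower in msn2Δ/msn4Δ cells (13.7%) and 1102 higher (18.2%), 31.8% in either direction. These percentages are the background against which each gene list below is read. The falls were the deeper changes. Of the 829 lower genes, 67 fell by at least 4 on the log2 scale and 305 by at least 2, with a median of -1.70. Of the 1102 higher genes, 4 rose by at least 4 and 199 by at least 2, with a median of 1.46. The lower genes had a median level of 35.6 CPM in msn2Δ/msn4Δ cells and 137 CPM in wild-type cells. The higher genes had a median of 28.4 CPM in msn2Δ/msn4Δ cells and 10.3 CPM in wild-type cells. The median over all genes tested was 0.24, and it was 0.21 with DESeq2's size factors, 0.53 with library totals alone and 0.06 in a fit of the 6 libraries alone. Of all calls, 57.1% were higher under TMM, 71.9% under library totals and 45.9% in the fit of the 6 libraries alone. All 3 msn2Δ/msn4Δ libraries lay below all 3 of the wild type for 23.3% of genes, and above them for 33.2%. Without the 2 libraries that stood apart, 736 genes were lower and 807 higher.

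Sequences upstream of the start codon show the element that Msn2 and Msn4 read. The stretches below come from 4 of the genes named in the results, DDR2, PGM2, CTT1 and HSP12, printed 5′ to 3′ on the gene's strand from the R64 genome, with STRE cores in capitals (AGGGG, or CCCCT where the element lies on the other strand). DDR2 and PGM2 lie on the minus strand, CTT1 and HSP12 on the plus strand.
DDR2 (chrXV:231921-232010): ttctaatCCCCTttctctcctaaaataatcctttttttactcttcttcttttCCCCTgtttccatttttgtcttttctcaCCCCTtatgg
PGM2 (chrXIII:477813-478016): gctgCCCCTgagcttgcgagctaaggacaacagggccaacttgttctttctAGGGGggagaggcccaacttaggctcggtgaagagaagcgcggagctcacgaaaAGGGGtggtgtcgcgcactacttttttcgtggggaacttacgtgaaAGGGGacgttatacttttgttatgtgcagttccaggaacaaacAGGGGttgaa
CTT1 (chrVII:654251-654510): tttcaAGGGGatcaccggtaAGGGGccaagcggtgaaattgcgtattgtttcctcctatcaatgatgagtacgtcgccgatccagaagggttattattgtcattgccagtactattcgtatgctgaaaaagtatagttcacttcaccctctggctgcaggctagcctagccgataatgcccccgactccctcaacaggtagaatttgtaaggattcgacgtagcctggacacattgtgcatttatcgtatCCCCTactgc
HSP12 (chrVI:106816-107075): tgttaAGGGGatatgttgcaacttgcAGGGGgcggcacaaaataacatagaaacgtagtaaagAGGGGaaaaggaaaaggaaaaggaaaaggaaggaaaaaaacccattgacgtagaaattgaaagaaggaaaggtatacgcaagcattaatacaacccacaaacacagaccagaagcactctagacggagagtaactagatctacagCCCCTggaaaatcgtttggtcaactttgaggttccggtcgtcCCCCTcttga
The DDR2 stretch runs from 255 to 166 bases before the start codon. Within 500 bases upstream of their start codons, PGM2 and HSP12 hold 5 such cores, DDR2 holds 4 and CTT1 holds 3. Of the 5624 windows of that length that could be read, 34.7% hold at least 1 STRE.

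The more STREs a gene carried, the more often it was lower in msn2Δ/msn4Δ cells. An STRE stood upstream of 68.6% of the 773 lower genes with a window, of 19.2% of the 1028 higher genes and of 32% of the 3823 genes not called. Among genes lower by at least 4 on the log2 scale, 88.3% of 60 had an STRE and 68.3% had 2 or more. Counted the other way, 6.62% of 3672 genes with no STRE were lower, 20.5% of 1479 with 1, 43% of 363 with 2, 56.6% of 83 with 3 and 88.9% of 27 with 4 or more. The share called higher ran the other way over the same classes, at 22.6%, 11.6%, 6.34%, 3.61% and 0%. The median log2 fold change over these classes was 0.42, -0.03, -0.80, -1.26 and -4.47. A match of 5 bases is a description and not a bound site: GAC1, among the deepest falls, holds none in this window. The HSE searched for here, GAA and TTC alternating over 3 units with 2 bases between units on either strand, was found in 1.51% of all windows and in 1.81% of those of lower genes.

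**Figure D1:**
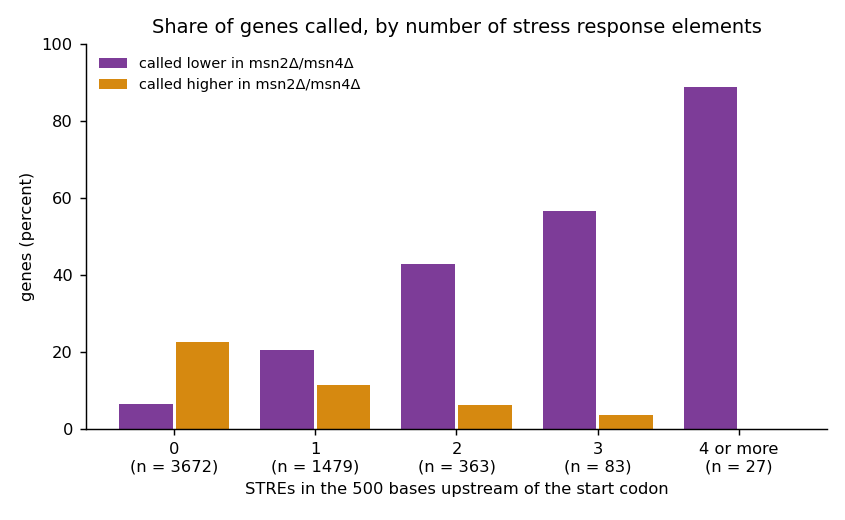
Genes called lower (left bar of each pair) or higher (right bar) in msn2Δ/msn4Δ cells after 30 min at 42 °C, as a percentage of all genes with the given number of STREs in the 500 bases upstream of the start codon. The share called lower climbed to 88.9% at 4 or more STREs, and the share called higher was largest, at 22.6%, with none.

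Trehalose, a disaccharide that protects proteins and membranes in heat, is made by a complex of the synthase Tps1, the phosphatase Tps2 and the subunits Tsl1 and Tps3. All 7 of 7 genes of its synthesis and breakdown were lower in msn2Δ/msn4Δ cells, with a median log2 fold change of -4.20. TSL1 stood at 266, 259.9 and 144 CPM in msn2Δ/msn4Δ cells, against 21514, 22507 and 26421 CPM in wild-type cells (-6.72 ± 0.55, edgeR adjusted p = 7.89e-14). All 3 wild-type libraries lay far above the msn2Δ/msn4Δ ones. TPS1 had 79.5, 60.1 and 70.3 CPM in msn2Δ/msn4Δ cells, against 1794, 2561 and 2935 CPM in wild-type cells (-5.12 ± 0.32, edgeR adjusted p = 1.66e-17). TPS2 and TPS3 changed by -4.74 ± 0.36 and -2.96 ± 0.28. The genes that break trehalose down fell with those that make it: the neutral trehalase gene NTH1 changed by -4.20 ± 0.29 and the acid trehalase gene ATH1 by -2.55 ± 0.23. Together the 7 genes took 0.063% ± 0.00333 of counts in msn2Δ/msn4Δ cells and 2.36% ± 0.29 in wild-type cells (SD, n = 3 each). With the 20 features of most counts left out of list and total, the shares were 0.0607% ± 0.00464 in msn2Δ/msn4Δ cells and 0.889% ± 0.157 in wild-type cells.

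Glycogen genes followed, with 10 of 11 lower and a median of -2.90. GAC1, which targets protein phosphatase to glycogen synthase, had 8.45, 10.5 and 7.09 CPM in msn2Δ/msn4Δ cells, against 547, 1932 and 1567 CPM in wild-type cells (-7.27 ± 0.76, edgeR adjusted p = 9.93e-11). GPH1, glycogen phosphorylase, stood at 10.8, 8.94 and 12.8 CPM in msn2Δ/msn4Δ cells, against 287, 1003 and 1093 CPM in wild-type cells (-6.19 ± 0.64). In both genes wild-type replicate 1 was the lowest of its group and still far above every msn2Δ/msn4Δ library. The glycogen synthase gene GSY2 (-3.95 ± 0.42), the branching enzyme gene GLC3 (-4.96 ± 0.48), the debranching enzyme gene GDB1 (-2.70 ± 0.40) and the primer gene GLG1 (-3.73 ± 0.36) were lower too. So were 5 of 8 genes that phosphorylate glucose or route its phosphates, with none higher and a median of -3.89, though 1 was higher with library totals, without msn2Δ/msn4Δ replicate 3 and without wild-type replicate 1. PGM2, the phosphoglucomutase that joins glucose 6-phosphate to both storage pathways, had 4.77, 6.48 and 4.66 CPM in msn2Δ/msn4Δ cells, against 667, 1950.2 and 1932 CPM in wild-type cells (-8.15 ± 0.48, edgeR adjusted p = 6.11e-18). HXK1, hexokinase 1, had 4.77, 3.51 and 1.82 CPM in msn2Δ/msn4Δ cells, against 728, 1100.2 and 984 CPM in wild-type cells (-8.12 ± 0.58). The glucokinase genes GLK1 and EMI2 changed by -4.48 ± 0.51 and -3.30 ± 0.33. HXT5, a glucose carrier of slow-growing cells, was at 205 ± 65 CPM in msn2Δ/msn4Δ cells and 3921 ± 946 CPM in wild-type cells (SD, n = 3 each; -4.26 ± 0.49), and 4 of 14 hexose transporter and sensor genes were lower against 1 higher. That 1 call ended without each of msn2Δ/msn4Δ replicates 2 and 3 and each wild-type replicate.

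**Figure D2:**
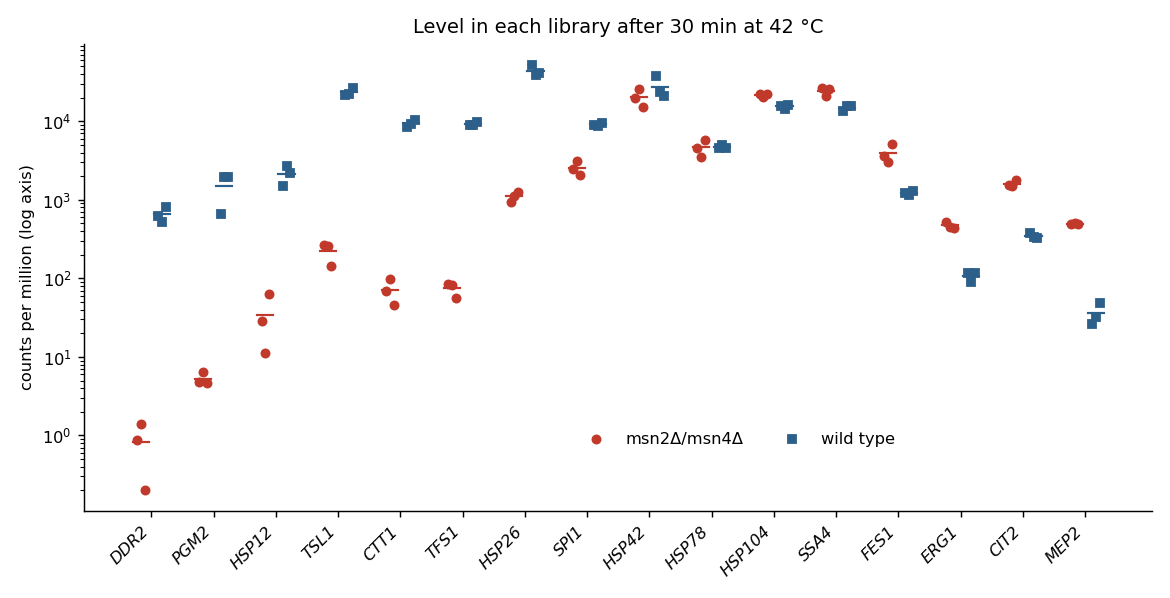
Level of 16 genes in each library after 30 min at 42 °C, in CPM on a log axis; each point is 1 library, the short bar is the mean of 3, and msn2Δ/msn4Δ stands left of wild type. From DDR2 to SPI1 all msn2Δ/msn4Δ libraries lie below all wild-type ones, HSP42 and HSP78 overlap, and from HSP104 to MEP2 all msn2Δ/msn4Δ libraries lie above.

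Small stress proteins held the deepest fall of all genes with reads in both strains. DDR2, a heat- and damage-induced gene, had 0.867, 1.4 and 0.203 CPM in msn2Δ/msn4Δ cells, against 628, 520.1 and 811 CPM in wild-type cells (-9.56 ± 0.78, edgeR adjusted p = 7.89e-14). Its msn2Δ/msn4Δ values lie near the level of 3 counts, where the size of a fold is poorly fixed, and the groups were far apart. The same holds for GPX1, CYC7, ATG39 and COX5B below. For BLI1 above and IMD2 and RPS1B below the wild-type values are low, so the sizes of their folds are poorly fixed too. HSP12, a membrane-binding protein that is among the most stress-induced of yeast, had 29, 11.2 and 63.2 CPM in msn2Δ/msn4Δ cells, against 1499, 2704 and 2202 CPM in wild-type cells (-5.95 ± 0.98, edgeR adjusted p = 3e-06). The msn2Δ/msn4Δ libraries differed among themselves, replicate 2 being lowest and replicate 3 highest, and none came near the wild-type ones. RTN2, an ER membrane-curving protein, changed by -5.79 ± 0.61. In all, 10 of 13 genes of this kind were lower and none higher, with a median of -3.14. Other deep falls were EGO4 (-8.83 ± 0.96), RGI1, a gene tied to energy metabolism (-8.30 ± 0.51), IGD1, an inhibitor of the glycogen debranching enzyme (-6.91 ± 0.82), AIM17 (-6.88 ± 0.50) and RTC3 (-6.67 ± 0.63). AIM17 had 166, 173 and 135 CPM in msn2Δ/msn4Δ cells, against 20235, 19006 and 16748 CPM in wild-type cells. All AIM17 values of msn2Δ/msn4Δ cells lay far below those of the wild type.

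In oxidative defence, 14 of 31 genes were lower and 2 higher, with a median of -0.92, and 1 was higher without msn2Δ/msn4Δ replicate 3 or wild-type replicate 3. CTT1, the cytosolic catalase, had 68.2, 98.7 and 45.4 CPM in msn2Δ/msn4Δ cells, against 8588, 9359 and 10269 CPM in wild-type cells (-7.05 ± 0.53, edgeR adjusted p = 5.74e-15). The peroxiredoxin gene AHP1 stood at 189.6, 143 and 125 CPM in msn2Δ/msn4Δ cells, against 7191, 5166 and 5067 CPM in wild-type cells (-5.25 ± 0.38). In both genes the groups were far apart. TSA2 and PRX1, other peroxiredoxins, changed by -4.83 ± 0.51 and -4.11 ± 0.27, the mitochondrial superoxide dismutase gene SOD2 by -3.67 ± 0.40 and the peroxidase gene GPX1 by -4.83 ± 0.56. GRX6, a glutaredoxin of the early secretory pathway, was 1 of the 2 that were higher, with 125, 107 and 204 CPM in msn2Δ/msn4Δ cells, against 53, 60.8 and 48.8 CPM in wild-type cells (1.42 ± 0.40); without msn2Δ/msn4Δ replicate 3 its value of 1.05 was no longer called. Aldehyde and methylglyoxal enzymes were lower in 9 of 14 genes and higher in none, or higher in 2 with library totals. The lower ones included ALD3 (-6.56 ± 0.67), the glycerol dehydrogenase gene GCY1 (-4.77 ± 0.42) and HSP31, a methylglyoxalase (-3.96 ± 0.37). GPD1, which makes the precursor of the osmolyte glycerol, fell to 79.9, 74.1 and 60.4 CPM in msn2Δ/msn4Δ cells, against 1336, 2142 and 2219 CPM in wild-type cells (-4.73 ± 0.34). The phosphatase gene GPP1 of the next step was higher (1.45 ± 0.33).

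**Figure D3:**
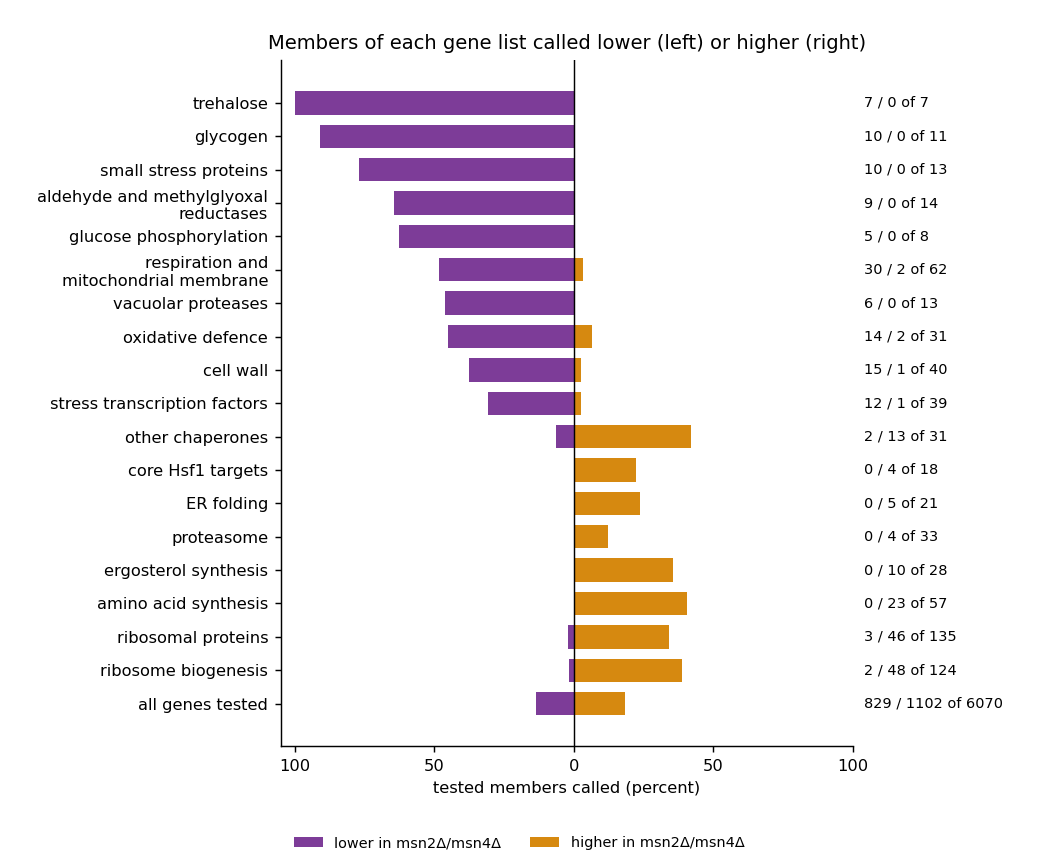
Tested members of 18 gene lists, and of all genes tested, called lower (bars to the left) or higher (bars to the right) in msn2Δ/msn4Δ cells after 30 min at 42 °C, in percent; the figures at the right give lower / higher of tested. The trehalose list is lower in 7 of 7, and the ribosome biogenesis list is higher in 48 of 124.

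In 5 pairs of genes for the same enzyme or protein, 1 gene was lower in msn2Δ/msn4Δ cells and its partner higher. The pairs, from central carbon metabolism and, for cytochrome c, the respiratory chain, were put together with their values known. SOL4, a 6-phosphogluconolactonase, had 15.4, 17.5 and 9.53 CPM in msn2Δ/msn4Δ cells, against 1527, 1552 and 1365 CPM in wild-type cells (-6.71 ± 0.51, edgeR adjusted p = 8.84e-15). Its paralog SOL3 was higher, with 495, 268 and 457 CPM in msn2Δ/msn4Δ cells, against 137, 169 and 165 CPM in wild-type cells (1.37 ± 0.23, edgeR adjusted p = 5.79e-06). The groups of each gene did not overlap and stood in opposite order. CYC7, the minor form of cytochrome c, was at 0.617 CPM in msn2Δ/msn4Δ cells and 16.5 CPM in wild-type cells (-4.74 ± 0.97). CYC1, the major form, was at 901 CPM in msn2Δ/msn4Δ cells and 350.4 CPM in wild-type cells (1.36 ± 0.34). Of the glyceraldehyde 3-phosphate dehydrogenase genes, TDH1 had 486, 364 and 276 CPM in msn2Δ/msn4Δ cells, against 2832, 4568 and 4150.1 CPM in wild-type cells (-3.36 ± 0.44). TDH2 had 11249.8, 10841 and 5188 CPM in msn2Δ/msn4Δ cells, against 3032, 2766 and 1932 CPM in wild-type cells (1.82 ± 0.40). TDH1 was thus lower and TDH2 higher in every msn2Δ/msn4Δ library, and TDH3, at -0.84 ± 0.40, was not called. It was called lower without msn2Δ/msn4Δ replicate 2 (-1.18) and with the 6 libraries alone (-1.01). The enolase gene ENO1 changed by -1.12 ± 0.31 and ENO2 by 1.48 ± 0.38; the call of ENO1 ended with library totals (-0.87) and without msn2Δ/msn4Δ replicate 3 (-0.98). The 6-phosphogluconate dehydrogenase gene GND2 changed by -3.45 ± 0.43 and GND1 by 1.16 ± 0.33; the call of GND1 ended without msn2Δ/msn4Δ replicate 1 (0.77) or wild-type replicate 1 (0.96). TKL2, the minor transketolase, changed by -5.68 ± 0.78. Over all, 5 of 23 glycolysis genes were lower and 3 higher, against 4 lower and 7 higher with library totals and 4 lower and 5 higher without msn2Δ/msn4Δ replicate 3. In the pentose phosphate pathway 6 of 14 genes were lower and 3 higher. The glycolysis list took 12.8% ± 2.45 of counts in msn2Δ/msn4Δ cells and 7.60% ± 0.248 in wild-type cells (SD, n = 3 each), or 5.24% ± 1.12 in msn2Δ/msn4Δ cells and 2.85% ± 0.0903 in wild-type cells without the 20 features of most counts.

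**Figure D4:**
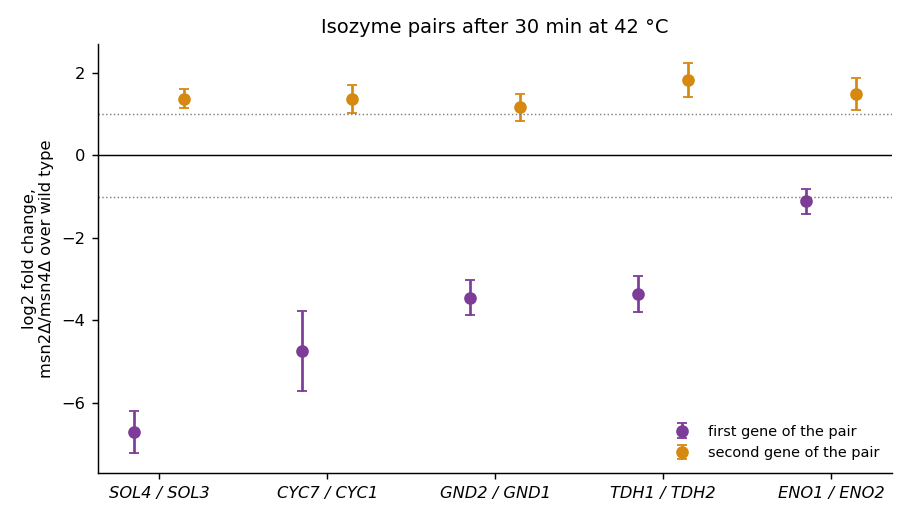
Log2 fold change of msn2Δ/msn4Δ over wild type ± SE for 5 pairs of genes for the same enzyme or protein after 30 min at 42 °C; dotted lines mark the fold threshold of 1. The first gene of each pair lies below -1 and the second above 1, from SOL4 at -6.71 against SOL3 at 1.37 to ENO1 at -1.12 against ENO2 at 1.48.

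Chaperone genes, the textbook targets of Hsf1, did not fall as a group. Of 18 core Hsf1 targets none was lower and 4 were higher (22.2%), with a median of 0.71. Of all genes tested 13.7% were lower and 18.2% higher, so the share higher was near that of all genes. The list took 13.1% ± 2.60 of counts in msn2Δ/msn4Δ cells and 7.81% ± 0.769 in wild-type cells (SD, n = 3 each). Without the 20 features of most counts the shares were 8.15% ± 2.03 in msn2Δ/msn4Δ cells and 3.93% ± 0.215 in wild-type cells. SSA4, a heat-induced Hsp70, had 26395, 20796 and 25620.0 CPM in msn2Δ/msn4Δ cells, against 13503, 15553 and 15682 CPM in wild-type cells (0.70 ± 0.30, edgeR adjusted p = 0.0511). HSP82, the inducible Hsp90, had 6209, 5397 and 6731 CPM in msn2Δ/msn4Δ cells, against 2999, 3857 and 3427 CPM in wild-type cells (0.83 ± 0.30, edgeR adjusted p = 0.0222). Every msn2Δ/msn4Δ library lay above every wild-type one in both genes, and neither reached the fold threshold, though both were called with library totals (1.01 and 1.14). FES1, a nucleotide exchange factor of Hsp70, was called, with 3655, 3020.1 and 5079 CPM in msn2Δ/msn4Δ cells, against 1222, 1162 and 1305 CPM in wild-type cells (1.67 ± 0.35, edgeR adjusted p = 0.000152). The other 3 calls, HSC82 (1.14 ± 0.34), the Hsp90 cochaperone gene CPR6 (1.30 ± 0.44) and the coactivator gene MBF1 (1.26 ± 0.39), ended without msn2Δ/msn4Δ replicate 3, at 0.87, 0.91 and 0.99, and those of CPR6 and MBF1 also without wild-type replicate 2, at 1.23 and 1.01; CPR6 was not called without wild-type replicate 3 either (1.19). Without msn2Δ/msn4Δ replicate 3 there was 1 call, without wild-type replicate 2 there were 2, and with library totals 9 of the 18 were higher. Of 31 other chaperone and cochaperone genes 2 were lower and 13 higher, with a median of 0.72, and 3 lower and 7 higher without the 2 libraries that stood apart. Without msn2Δ/msn4Δ replicate 3 there were 2 lower and 8 higher, without wild-type replicate 3 there were 1 lower and 8 higher, and with library totals 1 lower and 17 higher. SSE2, the stress-induced Hsp110, was 1 of the 2 lower, with 185, 166 and 279.7 CPM in msn2Δ/msn4Δ cells, against 348, 622 and 665 CPM in wild-type cells (-1.38 ± 0.34).

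Small heat shock proteins and stress-induced membrane proteins split. HSP26, a small heat shock protein that holds unfolded proteins in soluble form, had 941, 1124 and 1276 CPM in msn2Δ/msn4Δ cells, against 51812, 39051 and 41609 CPM in wild-type cells (-5.31 ± 0.62, edgeR adjusted p = 1.81e-09). All msn2Δ/msn4Δ libraries lay far below the wild type. HSP42, the other small heat shock protein, had 19624, 25568 and 15287 CPM in msn2Δ/msn4Δ cells, against 37759, 23968 and 20877 CPM in wild-type cells (-0.45 ± 0.41, edgeR adjusted p = 0.373), and the groups overlapped. SPI1, a wall protein anchored by glycosylphosphatidylinositol, fell to 2471, 3087 and 2095 CPM in msn2Δ/msn4Δ cells, against 8931, 8772 and 9639 CPM in wild-type cells (-1.84 ± 0.42). HSP30, a plasma membrane protein that lowers the proton pump's activity in stress, had 3276, 1932 and 4480.5 CPM in msn2Δ/msn4Δ cells, against 7203, 12744 and 17282 CPM in wild-type cells (-1.94 ± 0.60). The 5 genes of this list took 2.22% ± 0.184 of counts in msn2Δ/msn4Δ cells and 6.28% ± 0.68 in wild-type cells (SD, n = 3 each). Without the 20 features of most counts the shares were 0.469% ± 0.226 in msn2Δ/msn4Δ cells and 1.42% ± 0.556 in wild-type cells.

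HSP104, HSP78 and HSP42 were not called with Hsf1 in place and were far lower in double-loss cells than in Hsf1-depleted cells. Both strains were compared after rapamycin, in 6 other libraries at 42 °C and 30 min, and the difference between the strain differences was tested. This test sets cells given DMSO against cells given rapamycin, so Hsf1 and the drug cannot be told apart in it. Over all genes 15 differences were higher with Hsf1 in place (0.247%) and 1 was lower (0.0165%). The stretches below hold both kinds of element upstream of HSP104, HSP78 and HSP42, with STREs and HSEs in capitals, and SIS1, a cytosolic J-domain protein gene, is shown beside them since its stretch holds HSEs only. SIS1 is itself among the 15. Whether the elements account for these differences was not tested. HSP104 and HSP42 lie on the plus strand, HSP78 and SIS1 on the minus strand.
HSP104 (chrXII:88318-88457): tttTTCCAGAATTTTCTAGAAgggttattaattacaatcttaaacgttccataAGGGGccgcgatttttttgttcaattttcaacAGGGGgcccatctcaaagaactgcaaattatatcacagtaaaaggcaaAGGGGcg
HSP78 (chrIV:974364-974493): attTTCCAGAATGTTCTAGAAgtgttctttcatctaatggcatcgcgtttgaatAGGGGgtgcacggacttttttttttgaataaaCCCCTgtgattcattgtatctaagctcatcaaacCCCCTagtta
HSP42 (chrIV:806375-806450): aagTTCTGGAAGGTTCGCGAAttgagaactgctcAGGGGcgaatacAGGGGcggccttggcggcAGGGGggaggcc
SIS1 (chrXIV:619881-619915): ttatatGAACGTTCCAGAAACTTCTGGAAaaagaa
The first 3 hold 3 STREs and 2 overlapping HSEs each, and SIS1 holds 3 overlapping HSEs and no STRE in the whole window.

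HSP104, the disaggregase of the cytosol, had 22524, 20288 and 22547 CPM in msn2Δ/msn4Δ cells, against 15799, 14559 and 16013 CPM in wild-type cells (0.50 ± 0.26, edgeR adjusted p = 0.114). After Hsf1 depletion it had 137, 157 and 195 CPM in double-loss cells, against 2044, 2253 and 2132 CPM in Hsf1-depleted cells (-3.72 ± 0.29). The deletion libraries thus lay above the wild type with Hsf1 and far below without it, and the difference of 4.21 ± 0.38 passed the test (edgeR adjusted p = 1.08e-10). HSP42 had 28.6, 35.7 and 30.3 CPM in double-loss cells, against 1067, 2519 and 2037 CPM in Hsf1-depleted cells (-5.89 ± 0.50), with a difference of 5.44 ± 0.62 (edgeR adjusted p = 4.77e-08). HSP78, the mitochondrial disaggregase, had 4642, 3564 and 5852 CPM in msn2Δ/msn4Δ cells, against 4519, 4996 and 4538 CPM in wild-type cells (0.00 ± 0.29). After Hsf1 depletion it had 61.3, 69.6 and 78.1 CPM in double-loss cells, against 736, 736 and 714 CPM in Hsf1-depleted cells (-3.39 ± 0.32), and the difference was 3.39 ± 0.42 (edgeR adjusted p = 2.92e-07). With Hsf1 in place the HSP78 values of the strains overlapped, and without it they did not. SPI1 and HSP30 were lower in both states. SPI1 differed by 2.87 ± 0.59 and HSP30 by 4.14 ± 0.85; that of HSP30 was no longer called without wild-type replicate 1 (3.87). The polyubiquitin gene UBI4 differed by 1.66 ± 0.27, with changes of -1.10 ± 0.19 with Hsf1 and -2.76 ± 0.21 without. The proteasome regulator gene RPN4 (2.03 ± 0.37) and the J-domain protein gene APJ1 (1.87 ± 0.33) were also among the 15, as were SIS1 (1.66 ± 0.33) and CSM2, a recombinational repair gene (3.24 ± 0.39). CSM2 was higher with Hsf1 in place (1.22 ± 0.27, 0.99 and not called without wild-type replicate 2) and lower without Hsf1 (-2.02 ± 0.28). EXO84, an exocyst subunit gene, was the 1 lower (-1.10 ± 0.22). Its call ended without each of msn2Δ/msn4Δ replicate 2 (-0.96), double-loss replicate 2 (-1.01), Hsf1-depleted replicate 1 (-1) and wild-type replicate 1 (-0.95).

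For CTT1 and TSL1 the strain difference did not change with Hsf1 by an amount that passed the test. The log2 fold change of CTT1 was -7.05 ± 0.53 with Hsf1 and -7.08 ± 0.53 without it, a difference of 0.03 ± 0.58. That of TSL1 was -6.72 ± 0.55 with Hsf1 and -6.39 ± 0.54 without it. That of HSP26 was -5.31 ± 0.62 with Hsf1 and -6.88 ± 0.67 without it, and its difference of 1.57 ± 0.73 had an edgeR adjusted p of 1.0. SSA4 and HSP82 had differences of 1.13 ± 0.43 and 1.18 ± 0.43, neither called. SSA4 stood at 100.2, 85.7 and 118 CPM in double-loss cells, against 170.5, 122 and 117 CPM in Hsf1-depleted cells. HSP82 stood at 85.7, 119 and 136 CPM in double-loss cells, against 157, 128 and 149 CPM in Hsf1-depleted cells.

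**Figure D5:**
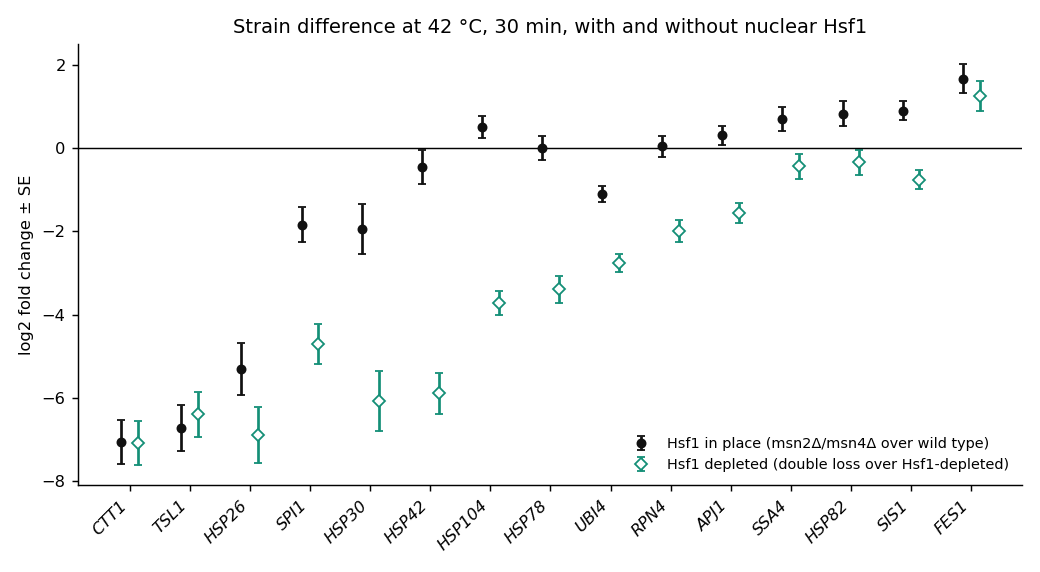
Log2 fold change ± SE between strains lacking and carrying MSN2 and MSN4 after 30 min at 42 °C, with Hsf1 in place (filled circles, left) and after Hsf1 depletion (open diamonds, right), for 15 genes. CTT1 lies near -7 in both states, whereas HSP42, HSP104 and HSP78 lie between -0.45 and 0.50 with Hsf1 and between -5.89 and -3.39 without.

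In other quality control lists 6 of 13 vacuolar proteases and inhibitors were lower and none higher. The ER list had 5 of 21 genes higher and none lower, near the share of all genes, and 8 higher with library totals, 2 higher and 1 lower with the 6 libraries alone, and 4 higher and 1 lower without msn2Δ/msn4Δ replicate 2. Its higher genes included DER1 of ER-associated degradation (1.55 ± 0.31) and the prolyl isomerase gene FPR2 (1.76 ± 0.46). KAR2, the ER Hsp70, had 61327, 64532 and 42058 CPM in msn2Δ/msn4Δ cells, against 34006, 46325 and 47956 CPM in wild-type cells, and the groups overlapped (0.39 ± 0.27). Of 33 proteasome subunit genes 4 were higher and none lower, a share below that of all genes. The higher genes numbered 9 with library totals, 7 without msn2Δ/msn4Δ replicate 2, 2 without wild-type replicate 2 or 3, 1 without wild-type replicate 1 and 0 without msn2Δ/msn4Δ replicate 3. UBI4 was lower, with 572, 668 and 495 CPM in msn2Δ/msn4Δ cells, against 1105, 1339 and 1263 CPM in wild-type cells (-1.10 ± 0.19), a call that ended with library totals (-0.82). The protease inhibitor gene TFS1 was the deepest of the vacuolar list, with 84.9, 82.7 and 55.9 CPM in msn2Δ/msn4Δ cells, against 8897, 8957 and 9831 CPM in wild-type cells (-6.95 ± 0.58, edgeR adjusted p = 1.17e-13). Carboxypeptidase Y, encoded by PRC1, had 789, 854 and 384 CPM in msn2Δ/msn4Δ cells, against 3103, 3649.9 and 4707 CPM in wild-type cells (-2.50 ± 0.43). The aminopeptidase genes APE3 and APE1 changed by -2.35 ± 0.30 and -2.23 ± 0.31, while the protease B gene PRB1 overlapped between the groups (-0.34 ± 0.40). Of 30 autophagy genes 8 were lower and 2 higher, and 4 and 4 with library totals; ATG39, a receptor for nuclear autophagy, was lower (-3.51 ± 0.59) and ATG5, part of the Atg8 conjugation machinery, was higher in every msn2Δ/msn4Δ library, with 460.2, 391.9 and 383 CPM in msn2Δ/msn4Δ cells, against 89.6, 92.7 and 97.3 CPM in wild-type cells (2.14 ± 0.28).

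Several genes of the signalling that governs Msn2 and Msn4 were lower. TPK2, a catalytic subunit gene of protein kinase A, had 29.7, 23.5 and 24.1 CPM in msn2Δ/msn4Δ cells, against 133, 169 and 185 CPM in wild-type cells (-2.65 ± 0.22). BCY1, the regulatory subunit of that kinase, had 279.5, 287 and 188 CPM in msn2Δ/msn4Δ cells, against 781, 878 and 1007 CPM in wild-type cells (-1.82 ± 0.33). YAK1, a kinase that opposes growth, had 181, 269.7 and 147 CPM in msn2Δ/msn4Δ cells, against 1692, 1789.9 and 1565 CPM in wild-type cells (-3.08 ± 0.41). None of these 3 genes had overlapping groups. CYR1, adenylate cyclase, changed by -1.26 ± 0.18, a call that ended with library totals (-0.97). In all 6 of 27 genes of the protein kinase A and TOR pathways were lower (22.2%) and 3 higher (11.1%), against 13.7% and 18.2% of all genes tested. With library totals 4 were lower and 6 higher. The higher genes numbered 1 without msn2Δ/msn4Δ replicate 3 or wild-type replicate 2, and 0 without wild-type replicate 3 or with the 6 libraries alone.

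Among stress-responsive transcription factor genes, 12 of 39 were lower and 1 higher, with a median of -0.65, and none was higher without msn2Δ/msn4Δ replicate 3, wild-type replicate 2 or wild-type replicate 3. USV1 had 14.7, 25.1 and 14.8 CPM in msn2Δ/msn4Δ cells, against 968, 872 and 894 CPM in wild-type cells (-5.64 ± 0.54, edgeR adjusted p = 6.93e-12). GIS1, whose product recognises an element close to the STRE, had 46.6, 49.4 and 24.7 CPM in msn2Δ/msn4Δ cells, against 548, 599 and 533 CPM in wild-type cells (-3.80 ± 0.30). The repressor gene XBP1 (-3.18 ± 0.68), the bZIP factor gene CIN5 (-2.77 ± 0.37) and HAP4, the activating subunit for respiration genes (-2.47 ± 0.37), were lower as well. Regulators of ribosomal gene transcription were lower in 4 of 15 and higher in none, with 2 higher under library totals and 1 higher without msn2Δ/msn4Δ replicate 2 or wild-type replicate 2. DOT6 and TOD6, paralogous repressors of ribosome biogenesis genes, changed by -3.54 ± 0.55 and -1.74 ± 0.27. SFP1, an activator of the same genes, changed by -1.67 ± 0.39. DOT6 had 137, 182 and 72.6 CPM in msn2Δ/msn4Δ cells, against 1609, 1404 and 1536 CPM in wild-type cells, with no overlap. In mRNA decay and granule factors 7 of 25 were lower and 1 higher, with 5 lower and 4 higher under library totals and none higher without wild-type replicate 2 or 3. The deepest were DCS2 (-5.39 ± 0.50) and its partner DCS1, the scavenger decapping enzyme (-3.34 ± 0.31).

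Respiration and mitochondrial genes were lower in 30 of 62 and higher in 2, with a median of -0.94, or 22 lower and 4 higher with library totals. OM14, an outer membrane protein, had 10.4, 9.81 and 8.11 CPM in msn2Δ/msn4Δ cells, against 246, 321 and 313 CPM in wild-type cells (-4.96 ± 0.39, edgeR adjusted p = 3.23e-14). OM45, its neighbour in that membrane, changed by -3.31 ± 0.56, ISF1, which helps respiratory growth, by -4.64 ± 0.46, and COX5B, the low-oxygen form of a cytochrome oxidase subunit, by -3.84 ± 0.77. CIT2, the peroxisomal citrate synthase, was higher, with 1551, 1508 and 1784 CPM in msn2Δ/msn4Δ cells, against 381, 336 and 328 CPM in wild-type cells (2.21 ± 0.27, edgeR adjusted p = 3.63e-09). Its groups were far apart, in the order opposite to that of most of the list. Cell wall genes were lower in 15 of 40 and higher in 1, with 12 lower and 4 higher under library totals. Without msn2Δ/msn4Δ replicate 3 there were 2 higher, and none without each of msn2Δ/msn4Δ replicates 1 and 2 and wild-type replicates 2 and 3. SED1, a structural mannoprotein, had 3909.7, 4039 and 2559 CPM in msn2Δ/msn4Δ cells, against 26456, 25070.0 and 27098 CPM in wild-type cells (-2.90 ± 0.65). The secreted glycoprotein gene YGP1 had 801, 1041 and 619 CPM in msn2Δ/msn4Δ cells, against 5258, 12466 and 11338 CPM in wild-type cells (-3.56 ± 0.67). PIR3, a wall-crosslinking protein, and SPS100 changed by -4.02 ± 0.74 and -3.24 ± 0.32. The wall list took 3.22% ± 0.578 of counts in msn2Δ/msn4Δ cells and 7.52% ± 0.224 in wild-type cells (SD, n = 3 each), or 2.55% ± 0.408 in msn2Δ/msn4Δ cells and 4.32% ± 0.433 in wild-type cells without the 20 features of most counts.

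Among genes higher in heated msn2Δ/msn4Δ cells than in heated wild-type cells were an ammonium permease gene, a GTP synthesis gene and several sterol genes. Of 27 genes of nitrogen use 4 were higher (14.8%) and 2 lower (7.41%), with a median of 0.02. Both shares were below those of all genes tested, 18.2% and 13.7%. There were 8 higher and 1 lower with library totals, 3 higher and 4 lower with the 6 libraries alone, and 1 lower without msn2Δ/msn4Δ replicate 3 or wild-type replicate 2. MEP2, a high-affinity ammonium permease, had 492, 506 and 488 CPM in msn2Δ/msn4Δ cells, against 26.5, 32.1 and 49 CPM in wild-type cells (3.79 ± 0.45, edgeR adjusted p = 3.63e-09). IMD2, which makes IMP dehydrogenase for GTP synthesis, had 40.7, 33.1 and 18.9 CPM in msn2Δ/msn4Δ cells, against 2.45, 1.24 and 2.15 CPM in wild-type cells (3.99 ± 0.52). Both were higher in every msn2Δ/msn4Δ library. Other genes far above wild type were the splicing factor gene CUS1 (3.02 ± 0.43), the mitochondrial carrier gene ODC2 (2.94 ± 0.42), the riboflavin gene RIB3 (2.77 ± 0.35) and the sodium-phosphate carrier gene PHO89 (2.74 ± 0.44). Ergosterol genes were higher in 10 of 28 and lower in none, with a median of 0.80. There was 1 lower without each of msn2Δ/msn4Δ replicates 1 and 2 and wild-type replicate 1, with no filter and with the 6 libraries alone. CYB5, the cytochrome b5 that feeds electrons to sterol enzymes, had 155, 119 and 235 CPM in msn2Δ/msn4Δ cells, against 18.2, 7.21 and 8.84 CPM in wild-type cells (3.90 ± 0.64). ERG1, squalene epoxidase, had 528, 456 and 439 CPM in msn2Δ/msn4Δ cells, against 117, 90.2 and 116 CPM in wild-type cells (2.14 ± 0.22, edgeR adjusted p = 8.21e-11). In both the msn2Δ/msn4Δ libraries all lay above the wild type. ERG10, at the entry of the pathway, and ERG25, a methyl sterol oxidase, changed by 2.43 ± 0.37 and 1.8 ± 0.31. The list took 0.755% ± 0.041 of counts in msn2Δ/msn4Δ cells and 0.329% ± 0.0276 in wild-type cells (SD, n = 3 each).

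Amino acid synthesis genes were higher in 23 of 57 and lower in none, with a median of 0.87. There was 1 lower without msn2Δ/msn4Δ replicate 2, and 2 were lower with the 6 libraries alone. SER1, of serine synthesis, had 189, 186 and 232 CPM in msn2Δ/msn4Δ cells, against 61.4, 55.6 and 51.2 CPM in wild-type cells (1.85 ± 0.16, edgeR adjusted p = 5.6e-13). ARG7 of ornithine synthesis (2.14 ± 0.32), HIS1 of histidine synthesis (2.19 ± 0.35) and ARO4 of aromatic amino acid synthesis (2.27 ± 0.36) were higher as well. Sulfur assimilation was higher in 7 of 28 and lower in none, with 1 lower without msn2Δ/msn4Δ replicate 1, without wild-type replicate 1 and with the 6 libraries alone. MET17, which makes homocysteine, had 1539, 1700.2 and 1002 CPM in msn2Δ/msn4Δ cells, against 343, 296 and 287 CPM in wild-type cells (2.20 ± 0.30). The methionine permease gene MUP1 and the adenylylsulfate kinase gene MET14 changed by 2.00 ± 0.30 and 2.24 ± 0.45. No msn2Δ/msn4Δ library of MET17 fell within the wild-type range.

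Of 135 ribosomal protein genes 46 were higher and 3 lower, with a median of 0.89, and the list took 0.325% ± 0.0796 of counts in msn2Δ/msn4Δ cells and 0.174% ± 0.0296 in wild-type cells (SD, n = 3 each). RPL3 had 153, 76.8 and 63 CPM in msn2Δ/msn4Δ cells, against 43.4, 30.5 and 34.4 CPM in wild-type cells (1.43 ± 0.28); without msn2Δ/msn4Δ replicate 1 its value was 0.90 and not called. Every msn2Δ/msn4Δ library of RPL3 was above every wild-type one. RPS1B had 7.37, 7.01 and 9.12 CPM in msn2Δ/msn4Δ cells, against 2.7, 1.03 and 0.956 CPM in wild-type cells (2.33 ± 0.44). Its wild-type level was low, and the size of its fold is poorly fixed. RPS15 went the other way, with 284, 203 and 130.5 CPM in msn2Δ/msn4Δ cells, against 637, 559.9 and 564 CPM in wild-type cells (-1.51 ± 0.32). At 25 °C RPL3 stood at 3343 CPM in msn2Δ/msn4Δ cells and 3617 CPM in wild-type cells, far above its level after heat in either strain. Without msn2Δ/msn4Δ replicate 1 the list had 24 higher, without wild-type replicate 3 it had 29, and in the fit of the 6 libraries alone it had 36. Of 124 ribosome biogenesis genes 48 were higher and 2 lower, with a median of 1.06, and 27 were higher in the fit of the 6 libraries alone and 31 without wild-type replicate 3. Without msn2Δ/msn4Δ replicate 2, 1 was lower. NSR1, a nucleolar protein, had 8.45, 5.08 and 7.7 CPM in msn2Δ/msn4Δ cells, against 5.15, 1.85 and 1.43 CPM in wild-type cells, with overlapping groups, and its call of 1.34 ± 0.55 ended without each of msn2Δ/msn4Δ replicates 1 (1.14) and 3 (1.21) and wild-type replicates 2 (1.03) and 3 (0.97), and with DESeq2's size factors in edgeR (1.30), no filter (1.27) and the 6 libraries alone (1.19). Without wild-type replicate 1 the NSR1 value was 2.03. RNA polymerase I and III genes were higher in 10 of 35 and lower in 1. The lower call ended without msn2Δ/msn4Δ replicate 2, and 5 were higher without msn2Δ/msn4Δ replicate 3, wild-type replicate 2 or wild-type replicate 3; RPC31, an RNA polymerase III subunit, changed by 2.53 ± 0.42.

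As a check on the strains, mating-type genes had no call at 25 °C, and at 42 °C and 30 min 5 of 12 were higher and none lower. The count was 2 without msn2Δ/msn4Δ replicate 1, 3 without msn2Δ/msn4Δ replicate 3 and 3 with the 6 libraries alone. BAR1, the a-cell protease that degrades alpha factor, had 136, 135 and 117 CPM in msn2Δ/msn4Δ cells, against 35.6, 30.9 and 30.8 CPM in wild-type cells (1.99 ± 0.27), and was expressed in both strains. BAR1 is 1 of the 12 genes, and its values alone do not fix the mating type of either strain. Auxotrophy and strain marker genes also had no call at 25 °C, and 4 of 13 were higher here, or 2 without each of msn2Δ/msn4Δ replicates 1 and 3 and wild-type replicates 1 and 3.

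Before heat the strains differed by an amount that passed the test in very few genes. Genes not called may still have differed. At 25 °C 6 genes were lower (0.0988%) and 1 higher (0.0165%) of the 6070, the deleted genes MSN2 and MSN4, GPH1 and HXK1 among the 6. HXK1 stood at 5.37 CPM in msn2Δ/msn4Δ cells and 76.3 CPM in wild-type cells at 25 °C (-3.81 ± 0.48, edgeR adjusted p = 5.48e-07). The strain difference at 42 °C and 30 min was more negative than that at 25 °C in 667 genes (11%) and more positive in 769 (12.7%), in a contrast that shares the 6 heated libraries with the direct comparison. PGM2 stood at 10.3 CPM in msn2Δ/msn4Δ cells and 19.3 CPM in wild-type cells at 25 °C, and its difference of differences was -7.25 ± 0.56 (edgeR adjusted p = 3.11e-13). CTT1 stood at 20.7 CPM in msn2Δ/msn4Δ cells and 26.5 CPM in wild-type cells at 25 °C, with -6.69 ± 0.64. EGO4, DDR2, RGI1 and TFS1 differed by -8 ± 1.54, -7.91 ± 1.49, -7.69 ± 0.64 and -6.79 ± 0.69. On the other side, CYB5 stood at 218 CPM in msn2Δ/msn4Δ cells and 231 CPM in wild-type cells at 25 °C and its difference was 3.98 ± 0.83 (edgeR adjusted p = 0.00031); IMD2 and MEP2 differed by 3.45 ± 0.68 and 3.26 ± 0.59. HSP12 stood at 1.11 CPM in msn2Δ/msn4Δ cells and 21.1 CPM in wild-type cells at 25 °C. Its log2 fold change of -4.18 ± 1.05 there did not pass the test (edgeR adjusted p = 0.102). The msn2Δ/msn4Δ level is near that of 3 counts, so the size of this fold is poorly fixed.

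Between 10 and 30 min at 42 °C the strain difference changed by an amount that passed the test in few genes. It moved down for 26 genes (0.428%) and up for 110 (1.81%). With the 12 libraries of the 4 groups fitted alone it moved down for 3 and up for 8. Genes not called may still have moved. The median strain difference of ribosomal protein genes was 0.10 at 10 min and 0.89 at 30 min, with 14 of 135 called up. That of ribosome biogenesis genes was 0.34 and 1.06, with 7 of 124 called up. Over all genes tested the median was 0.11 and 0.24. Of the downward moves, the peroxiredoxin gene TSA2 had 17 CPM in msn2Δ/msn4Δ cells and 50.9 CPM in wild-type cells at 10 min, a strain difference of -1.58 ± 0.46 that was -4.83 ± 0.51 at 30 min (change -3.25 ± 0.65, edgeR adjusted p = 0.00255). AHP1 had 918 CPM in msn2Δ/msn4Δ cells and 7155 CPM in wild-type cells at 10 min, and its strain difference moved by -2.29 ± 0.45. At 30 min TSA2 stood at 12.9 CPM in msn2Δ/msn4Δ cells and 366 CPM in wild-type cells, the wild-type level alone being above that at 10 min. AHP1 stood at 152 CPM in msn2Δ/msn4Δ cells and 5808 CPM in wild-type cells at 30 min, lower than at 10 min in both strains and more so in msn2Δ/msn4Δ cells. TFS1, OM14, HSP31 and the linker histone gene HHO1 moved by -3 ± 0.65, -2.31 ± 0.48, -2.16 ± 0.47 and -1.94 ± 0.37. Upward moves included ARO4 (2.52 ± 0.47), the seryl-tRNA synthetase gene SES1 (2.32 ± 0.45), the cell cycle gene CDC20 (2.36 ± 0.43), the daughter cell gene DSE1 (2.14 ± 0.37), RIB3 (2.01 ± 0.47), RPL3 (1.87 ± 0.38) and BAR1 (1.54 ± 0.37). At 10 min SES1 stood at 218 CPM in msn2Δ/msn4Δ cells and 221 CPM in wild-type cells, and at 30 min at 85.2 CPM in msn2Δ/msn4Δ cells and 17.3 CPM in wild-type cells, so the strains diverged as the transcript fell in both. HXT4, a glucose transporter, moved by 2.55 ± 0.60 since it was lower in msn2Δ/msn4Δ cells at 10 min (-2.75 ± 0.41) and not called at 30 min (-0.20 ± 0.45). Without wild-type 10 min replicate 1 the counts were 11 down and 57 up, without wild-type 30 min replicates 2 and 3 they were 13 and 14 down and 54 and 56 up, and without msn2Δ/msn4Δ 30 min replicate 1 there were 68 up.

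TSL1 was read in all 5 conditions. It stood at 46.2 CPM in msn2Δ/msn4Δ cells and 73.7 CPM in wild-type cells at 25 °C. After 10 min at 37 °C it stood at 179.9 CPM in msn2Δ/msn4Δ cells and 20824 CPM in wild-type cells, and after 30 min at 37 °C at 107 CPM in msn2Δ/msn4Δ cells and 2387 CPM in wild-type cells. After 10 min at 42 °C it stood at 327 CPM in msn2Δ/msn4Δ cells and 21567 CPM in wild-type cells, and after 30 min at 223 CPM in msn2Δ/msn4Δ cells and 23481 CPM in wild-type cells. CTT1 after 30 min at 37 °C stood at 61.6 CPM in msn2Δ/msn4Δ cells and 218 CPM in wild-type cells, against 53.1 CPM in msn2Δ/msn4Δ cells and 5299.6 CPM in wild-type cells after 10 min. Called genes numbered 845 lower (13.9%) and 614 higher (10.1%) at 37 °C and 10 min. They numbered 176 lower (2.9%) and 62 higher (1.02%) at 37 °C and 30 min, and 535 lower (8.81%) and 424 higher (6.99%) at 42 °C and 10 min.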

How the data were processed

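The deposited values are raw counts per feature, 1 table per library, whole numbers that the authors made without normalization. Per the submitters' processing notes, bcl2fastq 1.8.4, featureCounts 2.0.0, DESeq2 1.28.1, DESeq and the genome build R64 were used; which aligner, strand setting and multimapping rule were used is not stated in the labels or headers. Per the labels' protocols, poly(A) libraries (SENSE mRNA-Seq V2, Lexogen) were read as 50 bp single reads.

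Counts of all 60 libraries were fitted in edgeR 4.0.16 (R 4.3.3, limma 3.58.1) with 1 mean per group, TMM scaling and filterByExpr, which kept 6070 genes and removed 1056; the common coefficient of biological variation was 0.276. The script was tested on simulated data. SE is the size of the log2 fold change over the square root of F. Differences of strain differences were contrasts in the same fit. DESeq2 1.42.0, other scalings, filters, thresholds, a replicate block, a library set term and leaving out libraries were alternatives. Replicates of a group differed beyond sampling noise (chi-square per degree of freedom 14.7 to 91.08), so none was counted as a duplicate. Sequences were read with Biopython 1.88 in Python 3.11.15 from the R64 genome, and figures drawn with matplotlib 3.10.9. Features matched R64 by locus tag in 6048 of 7126 cases, and 0.459% of counts lay on the rest.

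Genes and lists were chosen with earlier results of these data known. The naming rule took the 15 largest calls in each direction with an average log2 CPM of at least 3, up to 6 called members per list and direction, 6 genes per direction of each contrast between strain differences, and fixed genes of interest; it gave 319 genes, of which 136 are printed. Results for a few genes are not reported here.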

Additional observations from a re-analysis of the deposited data

Results flagged for a closer look

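The strain difference changed with temperature, time and Hsf1 state (DMSO against rapamycin), each by a test of the difference itself in edgeR. Hsf1 depletion and rapamycin cannot be told apart in the last of these. Against 25 °C it was more negative in 667 genes and more positive in 769. The values were -8 for EGO4, -7.91 for DDR2, -7.69 for RGI1, -7.25 for PGM2, -6.79 for TFS1 and -6.69 for CTT1, and 3.98 for CYB5, 3.45 for IMD2 and 3.26 for MEP2.

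Against 10 min at 42 °C it was more negative in 26 genes and more positive in 110. The values were -3.25 for TSA2, -3 for TFS1, -2.31 for OM14, -2.29 for AHP1, -2.16 for HSP31 and -1.94 for HHO1. They were 2.55 for HXT4, 2.52 for ARO4, 2.36 for CDC20, 2.32 for SES1, 2.14 for DSE1, 2.01 for RIB3, 1.87 for RPL3 and 1.54 for BAR1.

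With Hsf1 in place it was more positive than in Hsf1-depleted cells in 15 genes and more negative in 1. The values were 5.44 for HSP42, 4.21 for HSP104, 4.14 for HSP30, 3.39 for HSP78, 3.24 for CSM2, 2.87 for SPI1, 2.03 for RPN4, 1.87 for APJ1, 1.66 for UBI4 and 1.66 for SIS1. EXO84, at -1.10, was the 1 gene in the other direction.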

How the results depend on the processing

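No called value of a printed gene changed sign under any alternative run. Of values that were not called, those of HSP42, HXT4, PRB1, RPN4 and YKL063C were among those that did so in the direct comparison. That of CTT1 did so in the Hsf1 contrast. Of 2038 values of the 136 genes in the direct comparison 1991 kept their call, 31 lost it and 16 gained it. Counts of lower and higher genes there were 611 and 1566 with library totals and 976 and 828 with the 6 libraries alone, and ranged from 765 to 954 and from 740 to 1098 when 1 library was left out. In 300-base windows, chosen after seeing the data, 53.6% of lower genes and 9.44% of higher genes held an STRE, against 22.8% of all.

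Against 25 °C, 420 genes were more positive at an adjusted p of 0.01, and leave-outs gave 570 to 719 more negative and 578 to 844 more positive. Against 10 min, the counts of more negative and more positive genes were 10 and 37 at an adjusted p of 0.01, 42 and 38 with library totals, 3 and 8 with the compared libraries alone, and 56 and 170 with library set as a term. DESeq2 gave 43 more negative. Leave-outs gave 11 to 37 and 54 to 126, and each of the 14 genes printed for this contrast lost its call somewhere. Against Hsf1-depleted cells, the more negative genes numbered 2 with DESeq2, 3 with library set as a term, 0 with the compared libraries alone and 0 without the 2 libraries that stood apart, and leave-outs gave 0 to 1. The more positive numbered 25 with library set as a term and 10 to 16 in leave-outs. RPN4 (1.90) and SIS1 (1.58) were not called there with library totals.

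Replicate numbers were shared by the groups but did not pair the libraries: deviations of same-numbered libraries correlated at 0.008, -0.029 and 0.022. With the replicate block, the direct comparison had 825 lower and 1104 higher genes. With the block and the compared libraries alone it had 980 and 836, the 10 min contrast had 0 and 0 and the Hsf1 contrast 0 more negative. The causes of these moves were not tested. Counts measure shares of each library, so changes in total RNA per cell could not be seen, and genes near 3 counts per library have poorly fixed folds.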
